A study of Homo sapiens with 6 samples.

Results

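The 55 keratin genes of chromosomes 12 and 17 were examined for called peaks of acetylated and benzoylated histone lysine at their starts. They were taken from GENCODE 44 on hg38 as the protein-coding genes whose symbol is KRT followed by a digit, so the keratin-associated protein genes (KRTAP) were not members. Of the 20033 protein-coding genes, 55 met this rule, 27 on chromosome 12 and 28 on chromosome 17. The 5 simple epithelial keratins KRT7, KRT8, KRT18, KRT19 and KRT20 were compared with the other 50. A gene was counted with a mark when a called peak lay within 3 kb of the transcription start site (TSS) of its canonical transcript.

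Keratins are the intermediate filament proteins of epithelial cells. A filament needs a type I keratin and a type II keratin in equal parts, so the genes work in pairs, and in the human genome the type II genes sit side by side on chromosome 12 and the type I genes on chromosome 17, except KRT18, a type I gene that stands beside its partner KRT8 on chromosome 12. Epithelia of a single cell layer, among them liver, gut and gland ducts, make simple keratins. Layered epithelia such as epidermis, and hair and nail, make other pairs, each in its own layer. Hepatocytes make KRT8 and KRT18, while bile duct cells add KRT7 and KRT19.

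The cells were labelled HepG2, a line grown from a human liver tumour, and were grown with or without sodium benzoate (SB), a food preservative, given at 10 mM for 24 h. ChIP-seq, which sequences the DNA pulled down with the histones an antibody binds, was made with pan antibodies to acetyllysine (Kac) and benzoyllysine (Kbz), which do not tell the histone or the lysine. There were 6 libraries, namely input, Kac and Kbz from control and from SB-treated cells, with 1 library per group. The lists used were control Kac with 70326 peaks, SB Kac with 63282 and SB Kbz with 24308. For the control Kbz library the labels report that no peak was found, so Kbz had no untreated list. Having no replicates, the lists were compared by description only, without a test. The intervals given are Wilson 95% intervals and cover counting error only. A peak list holds no read totals, so the sequencing depth was unknown, and a deeper library gives more peaks. Where the strength of a peak is given, it is the deposited fold over background, placed as a percentile among the peaks of the same list.

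The label of the line was checked against genes that mark cell types, to be read beside the shares of all protein-coding genes with a peak, namely 72.8%, 71.9% and 60.3% in the order control Kac, SB Kac, SB Kbz. Of 20 genes for liver products, 7 had a control Kac peak, 6 an SB Kac peak and 3 an SB Kbz peak (35%, 30% and 15%). ALB and AFP were among those with none, and APOA1, APOA2 and HPX were in all 3 lists. Of 10 kidney development genes, 8 (80%) had a peak in each list, and OSR1 and PAX8 had none. Of 12 keratinocyte genes, 11, 11 and 5 had one (91.7%, 91.7% and 41.7%). GRHL3, SFN, PERP, KLF5 and ITGB4 were in all 3 lists. TP63, the factor that defines the basal layer of epidermis, had none in the window of its canonical TSS. The starts of its other transcripts were not counted. Of 9 genes of neurons and neuroendocrine cells, 3, 4 and 3 had one (33.3%, 44.4% and 33.3%). Whether the identity of the cells bears on the keratin results below was not tested.

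The RefSeq promoter table (GRCh38.p14) held entries for 34 of the 55 keratins. It held none for KRT7, KRT18 and KRT19. The 250 bases before the RefSeq start are printed, 5′ to 3′ on the strand of the gene, for the 4 keratins whose RefSeq start lay under a Kac peak (KRT8, KRT20, KRT9 and KRT85) and for KRT10, a keratin with peaks in all 3 lists. Capitals mark CG dinucleotides and matches on either strand to the letters TATAAA (bound by TBP), CCAAT (bound by NF-Y), GGGCGG (bound by SP1) or TGANTCA (bound by AP-1), so that a match on the other strand appears as its reverse complement.
KRT8 (chr12:52926470-52926719, minus strand): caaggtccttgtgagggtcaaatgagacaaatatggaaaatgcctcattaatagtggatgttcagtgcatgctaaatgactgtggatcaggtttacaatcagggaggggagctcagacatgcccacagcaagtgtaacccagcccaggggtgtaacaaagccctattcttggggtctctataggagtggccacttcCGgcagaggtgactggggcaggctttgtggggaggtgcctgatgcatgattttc
KRT20 (chr17:40885243-40885492, minus strand): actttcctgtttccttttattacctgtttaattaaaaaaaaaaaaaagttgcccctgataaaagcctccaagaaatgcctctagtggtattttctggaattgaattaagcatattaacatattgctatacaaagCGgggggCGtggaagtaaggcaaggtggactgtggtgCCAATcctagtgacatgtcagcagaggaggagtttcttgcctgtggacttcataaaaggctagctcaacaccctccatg
KRT9 (chr17:41572060-41572309, minus strand): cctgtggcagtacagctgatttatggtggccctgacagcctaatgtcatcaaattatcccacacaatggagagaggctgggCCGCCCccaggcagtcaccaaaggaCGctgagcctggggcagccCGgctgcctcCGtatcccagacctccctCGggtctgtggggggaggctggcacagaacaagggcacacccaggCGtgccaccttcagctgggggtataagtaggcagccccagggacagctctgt
KRT85 (chr12:52367482-52367731, minus strand): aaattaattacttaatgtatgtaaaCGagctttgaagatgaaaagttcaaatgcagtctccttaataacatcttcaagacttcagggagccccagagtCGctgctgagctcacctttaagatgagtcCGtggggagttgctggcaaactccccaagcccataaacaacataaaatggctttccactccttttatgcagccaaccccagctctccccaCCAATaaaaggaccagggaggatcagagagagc
KRT10 (chr17:40822615-40822864, minus strand): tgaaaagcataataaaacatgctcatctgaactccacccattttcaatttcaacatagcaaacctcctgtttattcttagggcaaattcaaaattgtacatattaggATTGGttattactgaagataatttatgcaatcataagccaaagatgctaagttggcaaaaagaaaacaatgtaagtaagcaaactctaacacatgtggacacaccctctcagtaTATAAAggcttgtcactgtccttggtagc
The RefSeq start of KRT8 used here is 21393 bp upstream of the canonical one, and the 33 other entries start at the canonical TSS of their gene. Only 1 CG dinucleotide was found in the KRT8 stretch, 2 in that of KRT20, 6 in that of KRT9, 3 in that of KRT85 and 0 in that of KRT10. The KRT10 stretch held TATAAA at −29 to −24, counted in bases from the start, the usual place of a TATA box, and CCAAT on the other strand at −143 to −139. The KRT85 stretch held CCAAT at −33 to −29 and that of KRT20 at −79 to −75, while that of KRT9 held GGGCGG on the other strand at −169 to −164. A match is a match of letters and was not tested as a binding site.

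The keratin promoters with an entry, which leave out KRT7, KRT18 and KRT19, were poor in CpG. For KRT8 the entry is the upstream RefSeq start, not the canonical TSS at which its peaks were counted. The ratio of observed to expected CpG, which is low where CG dinucleotides were lost over evolution and high in CpG islands, had a median of 0.143 over the 34 keratins and 0.759 over 15344 protein-coding genes with an entry. A ratio of at least 0.6 was found in 0 of 34 keratins and in 66.6% of coding genes. The median GC content was 44% in keratins and 63.2% in coding genes. TATAAA occurred in 21 keratin promoters (61.8%) and in 9.08% of coding promoters, CCAAT in 16 (47.1%) and 34.9%, GGGCGG in 4 (11.8%) and 59.5%, and TGANTCA in 0 and 4.78%. The 13 keratins with a peak and an entry had TATAAA in 6 cases, and the 21 with an entry and no peak had it in 15.

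Among the 55 keratins, 17 had a control Kac peak, which is 30.9% (20.3 to 44), against 72.8% of all protein-coding genes. With SB Kac the count was 18, or 32.7% (21.8 to 45.9), against 71.9%. With SB Kbz it was 5, or 9.09% (3.95 to 19.6), against 60.3%. These keratin shares were below the coding background in each list. A peak of any list was found at 23 keratins (41.8%), against 75.4% of coding genes. The remaining 32 keratins (58.2%) had none, against 24.6%. All 3 lists were present at 5 keratins, against 59.8% of coding genes, and Kac in both conditions at 12 (21.8%), against 69.4%. No keratin had Kbz without SB Kac, a state found in 0.225% of coding genes.

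**Figure D1:**
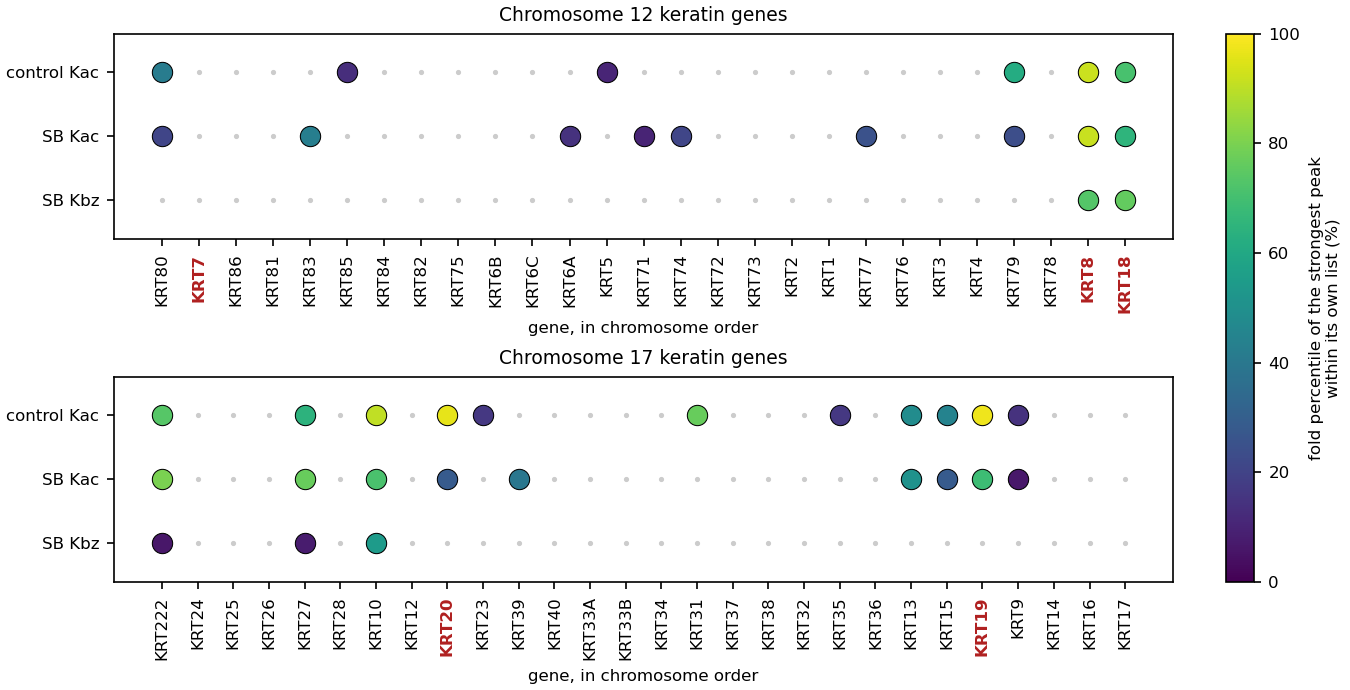
Keratin genes in chromosome order (horizontal) against the 3 peak lists (vertical), for chromosome 12 above and chromosome 17 below. A disc marks a called peak within 3 kb of the canonical TSS and its colour the fold percentile of the strongest such peak in its own list, a small dot marks no peak and red names are the simple epithelial keratins, and discs in the Kbz row stand at KRT8, KRT18, KRT222, KRT27 and KRT10.

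The simple epithelial keratins carried Kac at 4 of 5 genes in both conditions (80%, 37.6 to 96.4) and Kbz at 2 of 5 (40%, 11.8 to 76.9). Of the 50 other keratins, 13 had control Kac (26%, 15.9 to 39.6), 14 had SB Kac (28%, 17.5 to 41.7) and 3 had SB Kbz (6%, 2.06 to 16.2). The intervals of simple and other keratins overlapped in all 3 lists. With 5 genes against 50 the shares rest on few members, and genes are not replicates of a condition. The simple keratins with peaks were in both Kac lists in every case, while 11 of the 19 other keratins with a peak were in a Kac list of 1 condition only. Of the 50 other keratins, 10% had Kac in control only and 12% in SB only, against 3.45% and 2.48% of all coding genes. Apart from KRT31, the peaks of these 11 were below percentile 50 of their list.

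**Figure D2:**
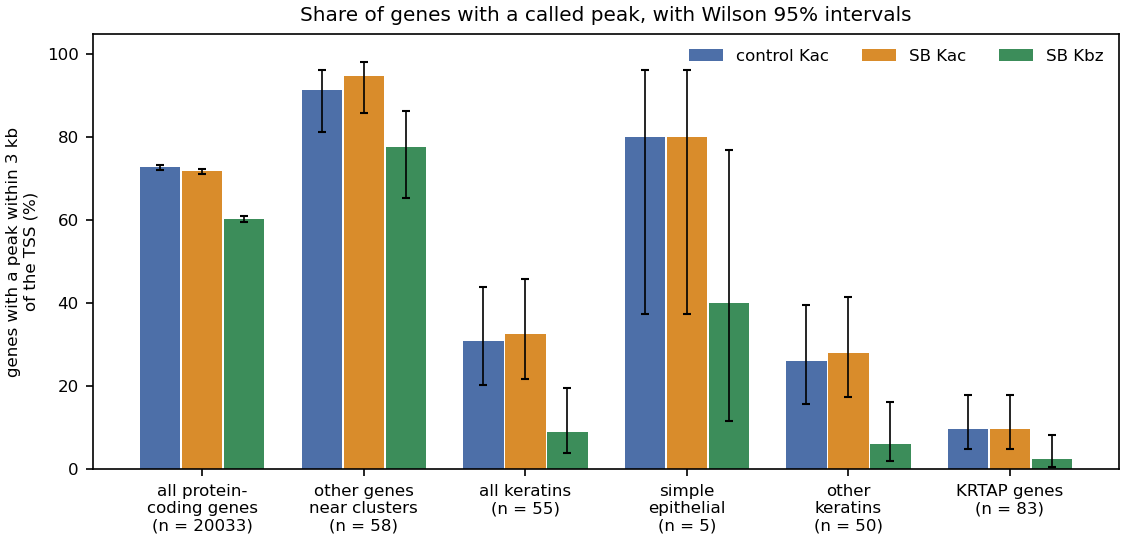
Percentage of genes with a called peak within 3 kb of the canonical TSS (vertical) for 6 sets of genes (horizontal), with 1 bar per list and Wilson 95% intervals as error bars. Keratins stand at 30.9, 32.7 and 9.09%, against 91.4, 94.8 and 77.6% for the other coding genes within 500 kb of the keratin clusters.

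KRT8, the type II keratin of liver and other simple epithelia, had more bases of its window under peaks than any other keratin in each list. Its TSS on chromosome 12 (position 52905076, minus strand) lay inside a control Kac peak of 9949 bp (52900927 to 52910875, fold 4.85, percentile 91.9) that filled all 6001 bases of the window. The SB Kac peak over it was 5847 bp long (52902845 to 52908691, fold 5.29, percentile 91.6) and filled 5232 bases. Kbz was called as a peak of 2443 bp over the TSS (52902994 to 52905436, fold 4.89, percentile 73.4), reaching from −360 to 2082 bp of it. Another Kbz peak of 929 bp (percentile 55.7) began 2088 bp upstream. KRT8 thus ranked high in both Kac lists, and both of its Kbz peaks lay wholly inside the SB Kac peak.

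KRT18, the type I partner of KRT8, was also in all 3 lists, but its TSS (position 52949118, plus strand) was under Kac only. The control Kac peak measured 5557 bp (fold 3.66, percentile 70.8) and the SB Kac peak 8724 bp (fold 3.37, percentile 64.9). Kbz was called on both sides of the TSS, as 2652 bp ending 818 bp upstream (percentile 16.4) and as 374 bp starting 423 bp downstream (fold 5.02, percentile 75.8). The Kbz peaks of KRT18 left the start itself uncovered, in contrast to the single Kbz peak over the start of KRT8. Annotated starts of long KRT8 transcripts also lay under both Kac peaks of KRT18, so the signal there cannot be given to either gene alone.

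KRT19, a type I keratin of bile ducts and other ducts, had its peaks upstream of the start (position 41528308 on chromosome 17, minus strand). In control Kac the peak was 4463 bp long with its edge 140 bp from the TSS, at fold 5.73 and percentile 97.6. In SB Kac it was 3266 bp long with its edge 959 bp away, at fold 3.51 and percentile 68.5. No Kbz peak lay in the window, and the nearest was 19707 bp away. KRT20, the keratin of gut surface epithelium, had a Kac peak over its TSS (position 40885242) in both lists, of 1309 bp in control and 1263 bp in SB. The peaks of KRT20 had nearly the same edges, but the control one was at fold 5.40 and percentile 96.2 and the SB one at fold 2.68 and percentile 28.3. Its nearest Kbz peak was 18165 bp away. KRT19 and KRT20 thus ranked near the top of the control Kac list and lower in the SB Kac list, with no replicate to show how far such ranks vary between libraries.

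KRT7, the type II keratin that pairs with KRT19 in ducts, was the simple keratin with no peak in the window of its canonical TSS. With the TSS of any annotated transcript counted it had a peak in all 3 lists, and the simple keratins then had control Kac at 5 of 5, SB Kac at 5 and Kbz at 3. The hair keratin KRT86 also gained a peak in all 3 lists, and KRT78 and KRT14 gained SB Kac. The other keratins then had control Kac at 14, SB Kac at 17 and Kbz at 4. The share of all coding genes was not counted under this setting. The nearest control Kac peak of KRT7 was 10364 bp from its canonical TSS (position 52233243), the nearest SB Kac peak 13367 bp and the nearest Kbz peak 14035 bp. Inside the gene, 20% of the bases were under control Kac peaks, 7.55% under SB Kac and 9.93% under Kbz. The Kbz peak (52247278 to 52249229, percentile 15.7) lay within the gene body.

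Kbz was called at 3 keratins that are not simple keratins. KRT222, an unclassified gene at the edge of the type I cluster, had its TSS under peaks of all 3 lists, of 2580 bp in control Kac (percentile 73.6), 855 bp in SB Kac (percentile 80.0) and 654 bp in Kbz (percentile 6.15). The start of another coding gene, ENSG00000264058, lay under the same peaks. KRT27, a type I keratin of the inner root sheath of the hair follicle, had small peaks 2441, 2529 and 2659 bp downstream of its TSS, in the gene, of 1145, 522 and 584 bp. The KRT27 peaks were at percentiles 64.4 and 76.6 in control and SB Kac and 7.78 in Kbz. KRT10, the type I keratin of the upper epidermal layers, had control Kac peaks of 3071 bp starting 1352 bp downstream (percentile 69.0) and of 3514 bp ending 2728 bp upstream (percentile 90.6). Its SB Kac peak was 5250 bp long and began 129 bp downstream (percentile 71.3). The Kbz peak of KRT10 (1067 bp, percentile 54.6) began 2963 bp downstream and put only 38 bp in the window, and it covered the start of the antisense gene KRT10-AS1, as did the Kac peaks downstream. Of these 3 genes, only KRT222 had Kbz over its own start. Since that peak also covered the start of ENSG00000264058, it cannot be given to either gene alone. With peaks given to the nearest gene only, KRT222 had no peak in any list.

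**Figure D3:**
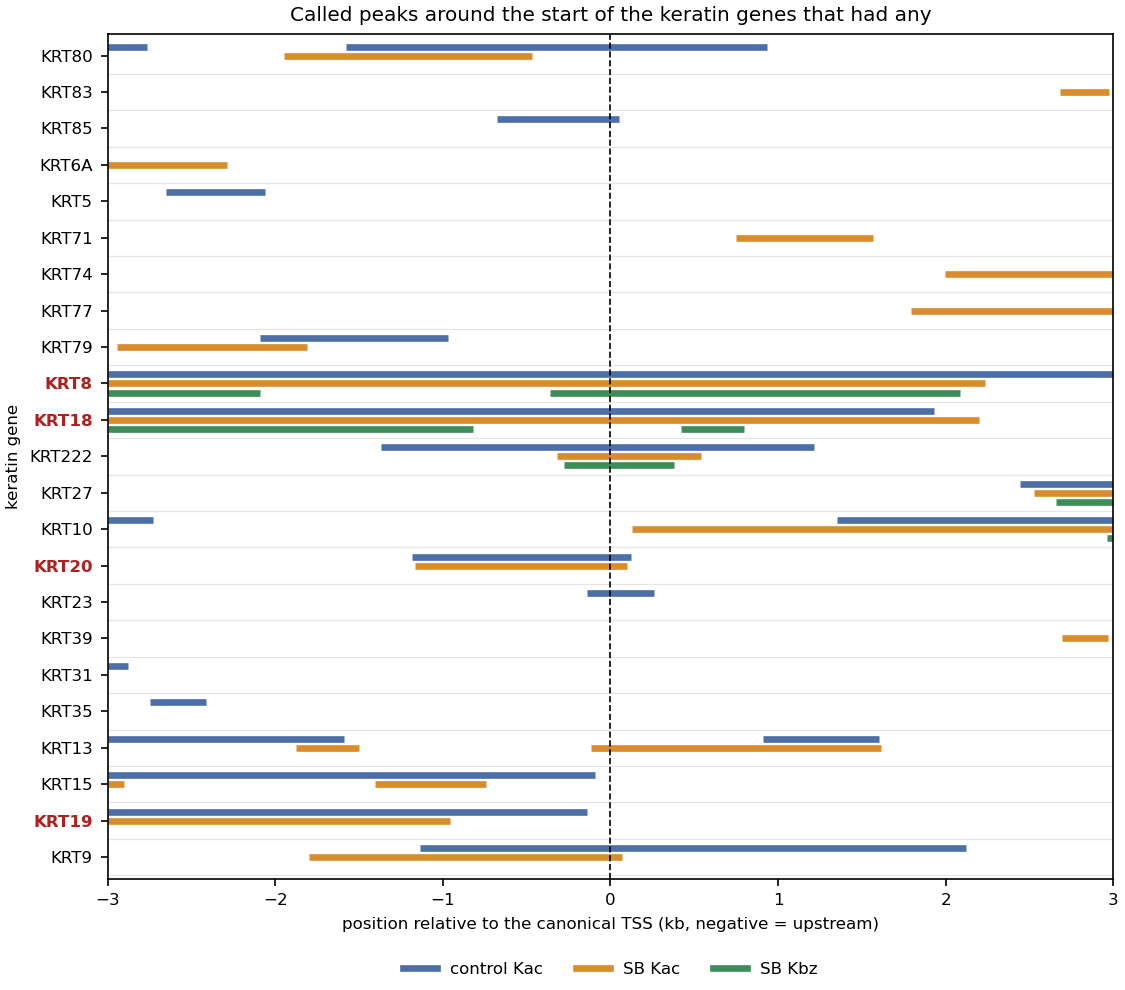
Called peaks around the canonical TSS of the 23 keratins that had any (vertical), drawn to scale in kb from the TSS (horizontal, negative upstream), with 1 coloured bar per peak and list, cut at 3 kb. The KRT8 and KRT222 starts are under a Kbz bar, and the KRT18 start lies between 2 Kbz bars.

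The other keratins with Kac in both conditions were KRT80, KRT79, KRT13, KRT15 and KRT9, and none had Kbz. KRT80, a type II keratin of many epithelia, had its TSS under a control Kac peak of 2513 bp (percentile 41.8), and its SB Kac peak of 1479 bp (percentile 20.4) ended 469 bp upstream. KRT79, known from sebaceous glands and the hair canal, had a peak 971 bp upstream in control (percentile 61.5) and 1809 bp upstream in SB (percentile 23.6). KRT13, a keratin of mucosal linings, had 2 peaks in each list, and only the SB Kac peak of 1729 bp (percentile 39.5) covered the TSS. These peaks ranked in the lower or middle part of their lists. KRT15, a keratin of basal cells and hair bulge stem cells, had a control Kac peak of 4716 bp ending 90 bp upstream (percentile 44.6) and SB Kac peaks at percentiles 28.2 and 20. KRT9, the keratin of palm and sole epidermis, had its TSS under a control Kac peak of 3260 bp (percentile 14.3) and an SB Kac peak of 1870 bp (percentile 6.52).

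Kac in control cells only was found at 5 keratins (9.09%), against 3.45% of coding genes, and Kac in SB-treated cells only at 6 (10.9%), against 2.48%. The control list alone held KRT85, KRT35 and KRT31 of hair and nail, KRT5 of the basal epidermal layer and KRT23. The start of KRT85 was under a peak of 730 bp at percentile 13.1 and that of KRT23 under one of 402 bp at percentile 16.3. The peaks at KRT5 (592 bp, percentile 10.5) and KRT35 (335 bp, percentile 16.0) ended 2058 and 2410 bp upstream. KRT31 was the exception in strength, with the end of an 8361 bp peak (percentile 76.7) 2879 bp upstream, and an SB Kac peak overlapped that peak outside the window, 6732 bp from the TSS. The SB list alone held KRT83 and KRT39 of hair, KRT71 and KRT74 of the inner root sheath, KRT6A, which is made in wounded epidermis, and KRT77. All of these SB peaks were between 280 and 1948 bp long and between percentiles 10.0 and 42.3. None covered a TSS, and the nearest, at KRT71, began 751 bp downstream. With 1 library each, weak peaks present in a single list cannot be told apart from variation in calling.

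By class, against 72.8%, 71.9% and 60.3% of all coding genes, 8 of the 23 keratins of epidermis and other stratified epithelia had control Kac, 8 had SB Kac and 1 had Kbz. For the 9 keratins of the hair follicle root sheath the counts were 1, 3 and 1, and for the 17 keratins of hair and nail they were 3, 2 and 0. In neither of the epidermal pairs KRT5 with KRT14 and KRT1 with KRT10 did both genes have a peak, since KRT14 and KRT1 had none in the window. This rests on the canonical TSS. With the TSS of any transcript counted, KRT14 had SB Kac while KRT5 had control Kac, and KRT1 still had none. How often other pairs of genes share a peak was not counted.

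Since 11 of the 18 keratins with SB Kac had only peaks in the lower part of that list by fold, the overlap of lists was described separately for genes whose strongest peak in the window was below or above the median of its list. This split was chosen after seeing the data. Kbz was found at 5 of the 18 keratins with SB Kac (27.8%), against 83.6% of the 14394 coding genes with SB Kac. Below percentile 50, Kbz accompanied SB Kac at 0 of 11 keratins and at 12.2% of 1312 coding genes. At or above it, Kbz was found at 5 of 7 keratins (71.4%) and at 90.8% of 13082 coding genes. The keratins without Kbz in the upper part were KRT13 (percentile 50.5) and KRT19 (percentile 68.5). Keratins with SB Kac were below percentile 50 in 61.1% of cases, and coding genes with SB Kac in 9.11%. The median percentile of the strongest peak was 34.0 for keratins and 85.4 for coding genes in SB Kac, and 61.5 and 81.8 in control Kac. SB Kac without Kbz was thus seen at 13 keratins (23.6%), against 11.8% of coding genes, and 11 of these 13 had only peaks in the lower part of the list.

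By the same split, Kac called in both conditions was more frequent at or above percentile 50 than below it, without a full separation. Of the keratins with control Kac, 8 of 9 at or above percentile 50 also had SB Kac, with KRT31 as the exception, and 4 of 8 below it had. For coding genes these shares were 98.2% and 70.7%. Of the keratins with SB Kac, 7 of 7 at or above percentile 50 also had control Kac, and 5 of 11 below it had, where coding genes had 98.8% and 74.2%.

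CpG content was set beside the peaks, since all 34 keratin promoters in the table had a ratio under 0.6. KRT7, KRT18 and KRT19 are not among them. The ratio of KRT8 is that of its upstream RefSeq start, while its peaks were counted at the canonical TSS. Of the 34 keratins with an entry, 10 had control Kac (29.4%), 9 SB Kac (26.5%) and 3 Kbz (8.82%). In the 5084 other coding genes with a ratio under 0.6, the shares were 45.5%, 42.3% and 27.7%, and in the 10226 with a ratio of at least 0.6 they were 88.9%, 88.9% and 80.3%. The keratin shares were below those of both groups. The part of CpG content in these shares was not tested.

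The type II cluster of chromosome 12, taken with KRT18, ran for 784 kb (52168996 to 52952906). It held 42 control Kac peaks over 10.4% of its bases, 34 SB Kac peaks over 7.73% and 14 Kbz peaks over 2.09%. In the 500 kb on each side the covered shares were 23.2%, 21.1% and 6.42%, and over the whole chromosome 4.52%, 4.21% and 1.3%. The cluster was thus less covered than its flanks and more covered than the chromosome. The type I cluster of chromosome 17 ran for 970 kb (40654665 to 41624842), with KRTAP genes in its middle. It held 36 control Kac peaks over 8.51% of its bases, 25 SB Kac peaks over 3.34% and 7 Kbz peaks over 0.674%. Its flanks had 22.4%, 19% and 6.14%, and the chromosome 9.32%, 8.95% and 2.49%. The chromosome 17 cluster was below its chromosome in all 3 lists. Covered length there was 82.6 kb in control Kac and 32.4 kb in SB Kac, with a median peak length of 1314 bp and 931 bp. Of the 36 control peaks there 19 overlapped SB Kac, and of the 25 SB peaks 22 overlapped control Kac. On chromosome 12, 22 of 42 control peaks overlapped SB Kac and 21 of 34 SB peaks overlapped control Kac. These overlaps were not counted in the flanks or over the chromosomes, so they cannot be called particular to the clusters.

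**Figure D4:**
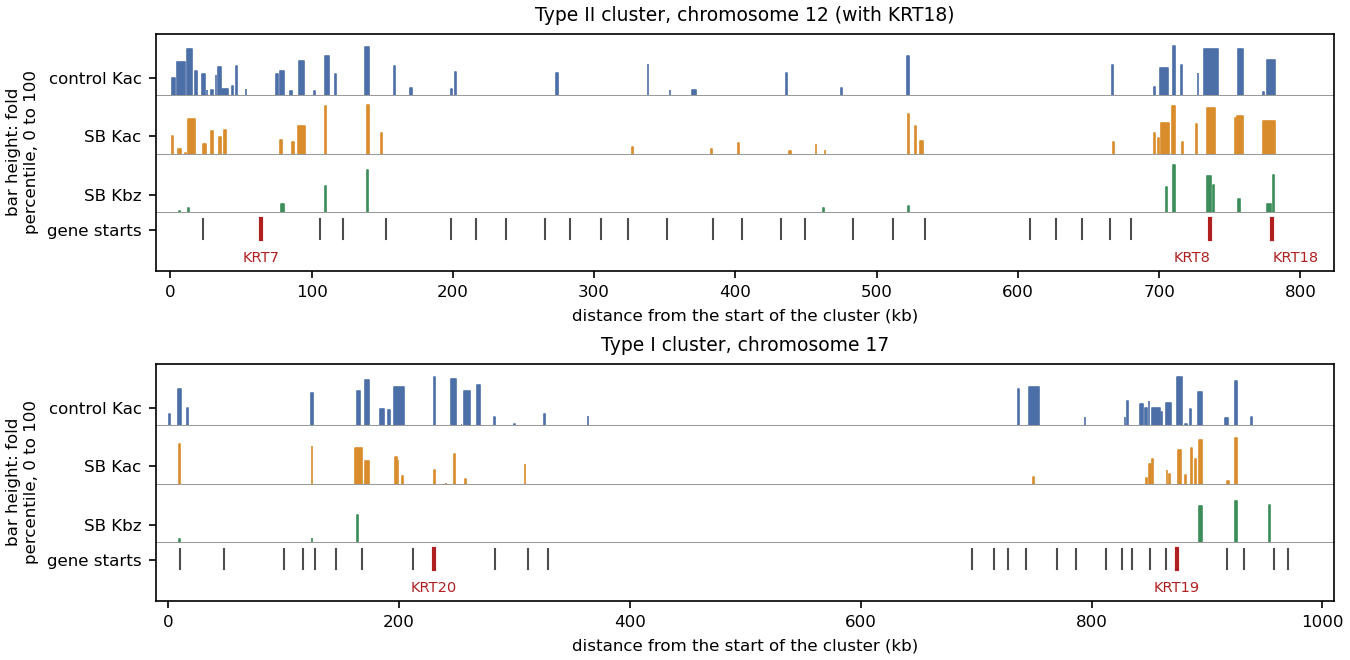
Called peaks of the 3 lists along the chromosome 12 cluster (above) and the chromosome 17 cluster (below), as distance in kb from the start of the cluster, with bar height showing the fold percentile in its own list from 0 to 100 and ticks the canonical starts of the keratins, the simple ones in red. Kbz bars are missing from stretches of 322 kb on chromosome 12 and 644 kb on chromosome 17.

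Peaks gathered at some places in the clusters and left long stretches bare. On chromosome 12 the longest stretch without a peak of any list was 134 kb and held the starts of KRT77, KRT76, KRT3, KRT4 and KRT79. Without Kbz the longest stretch was 322 kb, and it held 13 keratin starts, from KRT83 to KRT73. On chromosome 17 the longest stretch bare of all lists was 372 kb (41018787 to 41391139), with the starts of KRT33A, KRT33B and KRT34 and of 31 KRTAP genes. Without Kbz it was 644 kb, with 15 keratin and 34 KRTAP starts, among them KRT19.

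The strongest Kbz peak of either cluster was not at a keratin start. It lay 24646 bp downstream of the KRT8 TSS, at chr12:52878904-52880430, with fold 7.17, percentile 95.8 and a −log10 q of 19.2. Control Kac and SB Kac had peaks at the same place, at percentiles 99.2 and 96.2. A Kbz peak inside KRT86, a hair keratin gene that spans much of the region between KRT7 and KRT83, stood at percentile 85.1 beside Kac at 96.3 and 97.8, and one 6515 bp from the KRT14 start at percentile 82.6 beside Kac at 89.5 and 91.0. These 3 places were named after their values were seen. The upstream RefSeq start of KRT8 printed above lay under control Kac (percentile 92.7) and SB Kac (percentile 75.9), and a Kbz peak at percentile 26.2 ended at 52926118, short of the start at 52926469.

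The median distance from a keratin TSS to the nearest peak was 7943 bp in the control Kac list. In the SB Kac list it was 11625 bp, and in the Kbz list 36184 bp. Over 19970 coding genes on chromosomes with a peak the medians were 0, 0 and 198 bp. The TSS itself was covered at 8 keratins by control Kac, at 6 by SB Kac and at 2 by Kbz, and 11 keratins were more than 100 kb from any Kbz peak. Of the 19970 coding genes, 11839, 12091 and 9170 had the TSS covered, and 2331 were more than 100 kb from Kbz. For Kbz the medians were 14.0 kb in simple keratins, 33.9 kb in keratins of epidermis and other stratified epithelia, 24.0 kb in those of the root sheath and 80.6 kb in those of hair and nail. The farthest was KRT33A, a hair keratin, at 197187 bp. Among the keratins, hair and nail genes stood farthest from Kbz and simple keratins nearest by median, with overlapping ranges.

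**Figure D5:**
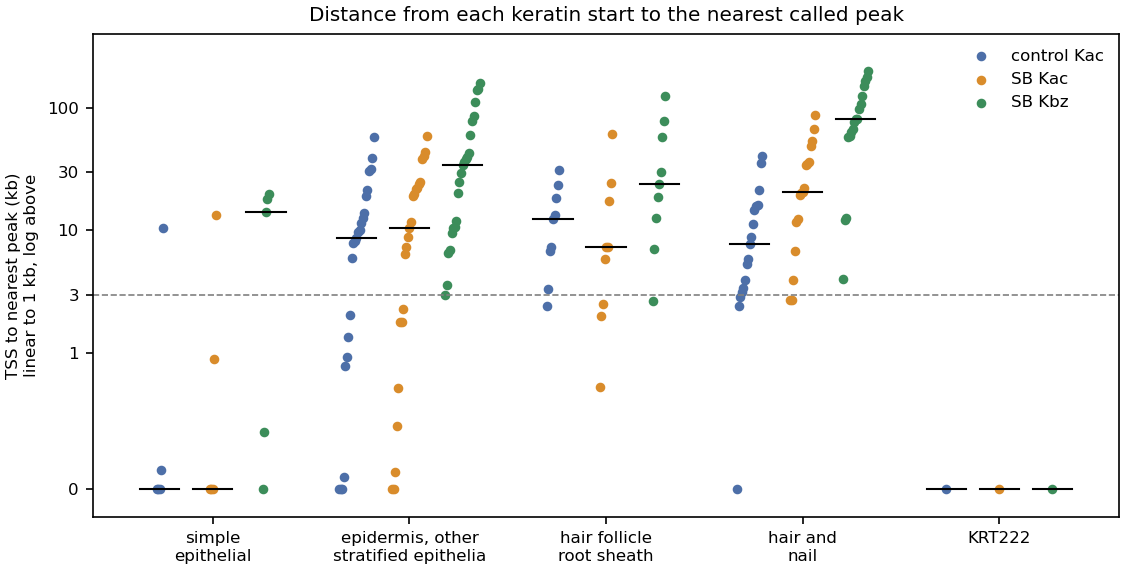
Distance in kb from each keratin TSS to the nearest called peak (vertical, linear to 1 kb and log above), by class of keratin (horizontal) and list (colour), with 1 point per gene and a line at the median, and a dashed line at 3 kb. Kbz medians run from 14.0 kb in simple keratins to 80.6 kb in hair and nail keratins, and KRT222 is at 0 in all 3 lists.

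The edge of the 3 kb window fell between close values. Just outside it were KRT40, with control Kac at 3177 bp, KRT72 with control Kac at 3344 bp and KRT86 with control Kac at 3376 bp. Just inside were the Kbz peak of KRT10 at 2963 bp and the control Kac peak of KRT31 at 2879 bp.

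Counts for genes around and related to the keratins were read beside the 72.8%, 71.9% and 60.3% of all coding genes with control Kac, SB Kac and Kbz. The 58 other coding genes within 500 kb of the clusters had control Kac at 53, SB Kac at 55 and Kbz at 45 (77.6%, 65.3 to 86.4), where keratins had 17, 18 and 5 of 55. These genes lay outside the clusters, in flanks that were more covered by peaks than the clusters. The contrast therefore does not hold location constant. The 83 KRTAP genes of chromosomes 17 and 21, which encode the matrix proteins of hair, had 8, 8 and 2, and the 34 of them on chromosome 17 had 0 in each list. Of 15 other intermediate filament genes, 11, 12 and 8 had these peaks (73.3%, 80% and 53.3%), close to those shares. VIM, the filament of mesenchymal cells, and the lamin genes LMNA, LMNB1 and LMNB2 of the nuclear envelope were in all 3 lists. Genes of the linkers and desmosomes that anchor keratin filaments had 17, 14 and 11 of 18, with DSP, JUP and PKP2 in all 3 lists and DSG4, a hair desmoglein, in none. Control Kac without SB Kac was found at 3 of the 18, against 3.45% of all coding genes. These were PPL and the desmosomal cadherins of epidermis DSG1 and DSC1. Of the other desmosomal cadherins with a peak, DSG3 had Kac in both conditions, and DSC3, DSC2 and DSG2 were in all 3 lists. The cornified envelope genes of the outer epidermis had 4, 3 and 0 of 12.

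Because the study kept uniquely mapped reads of 50 bp and keratins have close paralogs, the share of 50-base stretches that occur once in the reference was counted in each window. The median was 97.0% over the keratins (59.3 to 100) and 97.3% over 477 other coding genes. It was under 90% at 9 of the 55 keratins and at 45 of the 477 others. Among the keratins it was lowest at KRT81 (59.3%), KRT6C (71.5%) and KRT6B (73.2%), and none of these lowest 3 had a peak. KRT6A, with 84.9%, had an SB Kac peak. When alternate contigs of the reference were counted too, 10 keratin windows, all of chromosome 17, fell under 50%, against 27 of the 477 others. Of these 10, 4 nonetheless had peaks, namely KRT20, KRT23, KRT39 and KRT31. Whether the alignment of the authors included such contigs is not given in the sources used here, and the part of read uniqueness in the other bare windows was not tested.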

How the data were processed

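Kac, Kbz and input libraries of control and SB-treated HepG2 cells were described by the peak lists of 3 libraries (control Kac, SB Kac, SB Kbz). The input libraries were not used here, and for control Kbz no peaks were identified per the labels. As the study's methods and the submitters' processing notes state, the authors digested chromatin with micrococcal nuclease, sequenced single 50 bp reads, aligned them to hg38 with Bowtie2 2.2.6, kept uniquely mapped reads, removed duplicates with SAMtools 0.1.19 and called peaks with MACS2 2.1.1 at a false discovery rate of 0.01. The broad setting and the background track are not given in the sources used here. Peaks were called per library. The peak with the highest q had 0.0487 (control Kac), 0.0494 (SB Kac) or 0.0485 (SB Kbz), so the lists reach beyond the stated rate.

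The deposited score, an integer for display, entered no result. The fold deposited by the authors is a linear ratio of read density over background and was ranked only within its list, as the percentage of its peaks with a lower fold. The deposited −log10 p and −log10 q served as thresholds in alternatives. All are averages over a broad peak. Depth is unknown, and Wilson 95% intervals cover counting error only.

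Peaks on the numbered chromosomes, X and Y were kept. A gene had a peak when at least 1 bp of it lay within 3000 bp of the TSS of its Ensembl canonical transcript (GENCODE 44). The share of all protein-coding genes stands beside the first count from each list. No test was run, for want of replicates. Promoter bases and motifs came from the RefSeq table (GRCh38.p14), and uniqueness from exact 50-base matches on both strands of hg38.

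The named genes were every keratin with a peak, the 5 simple epithelial keratins and the 3 whose nearest peak was closest to the window from outside, and other genes named were chosen after their values were seen. The members and lists were chosen with earlier results of these data known. A list of liver transcription factor genes is not reported here. Alternatives were −log10 q of at least 2 or 5, the top 15000 peaks per list by −log10 p, a window of 1 kb, peaks over the TSS, the TSS of any transcript, at least 500 bp under peaks, assignment to the nearest gene, and KRT23 and KRT80 counted as simple. Tools were Python 3.11.15, numpy 2.4.6, scipy 1.17.1, pandas 2.3.3, matplotlib 3.10.9, numba 0.67.0, pysam 0.24.0, samtools 1.23.1 and bedtools 2.31.1. Overlaps were tested on simulated data, where 400 of 400 planted peaks were recovered, and checked against bedtools over 60099 pairs of gene and list, of which 0 differed.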

Additional observations from a re-analysis of the deposited data

How the results depend on the processing

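Each of 22 results was recomputed under the alternatives, 137 values in all. Of these 67 stayed close to the value reported and 70 did not. A count was close within 1.5 times, a covered share within its Wilson 95% interval and a median distance within its 95% interval over genes. The interval of a covered share takes each base as independent, although bases are covered in whole peaks, so it is too narrow. Each stricter choice of peaks moved every covered share, so these moves say little about how stable the shares are. Counting the TSS of any transcript, the nearest gene only, or KRT23 and KRT80 as simple keratins moved none of them so far. With any transcript, though, KRT7 and the hair keratin KRT86 gained a peak in all 3 lists, and KRT78 and KRT14 gained SB Kac. With the nearest gene only, KRT222 lost its peak in all 3 lists. The cause of the moves below was not tested, except that each setting keeps fewer or shorter stretches by its construction. Shares of all coding genes were counted only where given below. They were not counted for Kac of a single condition or for SB Kac without Kbz. Whether the differences from coding genes in those counts hold under the alternatives is thus unknown.

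With a −log10 q of at least 2, 10 keratins kept SB Kac, 6 of them not simple, and 8 that are not simple had control Kac. SB Kac without control Kac was left at 2 and SB Kac without Kbz at 6. Peaks covered 8.52% (control Kac), 5.97% (SB Kac) and 1.82% (Kbz) of the chromosome 12 cluster and 7.40%, 2.52% and 0.577% of that of chromosome 17, and the median distance to SB Kac was 22848 bp and to Kbz 58278 bp. All coding genes then had peaks at 70.8%, 69.2% and 58.5%.

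When the −log10 q had to reach 5, 7 keratins had control Kac (3 not simple), 5 had SB Kac (2 simple, 3 not) and 3 had Kbz (1 not simple), while coding genes had 48.0%, 54.5% and 41.2%. Control Kac alone was left at 3, SB Kac alone at 1 and SB Kac without Kbz at 3. Cover was 4.04%, 1.77% and 0.866% on chromosome 12 and 4.74%, 1.40% and 0.509% on chromosome 17, with median distances of 35642, 45381 and 65591 bp.

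With the 15000 peaks of each list of highest −log10 p, which equalises list lengths, 6 keratins had control Kac (3 not simple), 2 had SB Kac (1 simple, 1 not) and 3 had Kbz (1 not simple), while coding genes had 39.2%, 48.9% and 49.1%. SB Kac alone was left at 0 and SB Kac without Kbz at 1. Cover was 3.08%, 1.77% and 1.16% on chromosome 12 and 3.82%, 0.470% and 0.509% on chromosome 17, with median distances of 42104, 80627 and 65591 bp.

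In a window of 1 kb, 11 keratins had SB Kac and 3 had Kbz. All coding genes then had control Kac, SB Kac and Kbz at 68.9%, 68.2% and 57.3%. Among those not simple, 8 had control Kac, 7 SB Kac and 1 Kbz. Control Kac alone was left at 3, SB Kac alone at 2 and SB Kac without Kbz at 8. Where the peak had to cover the TSS, 8 keratins had control Kac (5 not simple), 6 had SB Kac (3 not simple) and 2 had Kbz (1 simple, 1 not). Coding genes had 59.1%, 60.4% and 45.8%. Control Kac alone was left at 3, SB Kac alone at 1 and SB Kac without Kbz at 4. With at least 500 bp of the window under peaks, 3 keratins had Kbz (1 not simple) and 3 had control Kac alone. The share of all coding genes was not counted under this setting.

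No paired analysis was possible because the groups hold 1 library apiece and no result comes from a test. Leaving out a replicate was not run for the same reason.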

Other observations

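Of the 21 Kbz peaks in the keratin clusters, 2 overlapped no Kac peak of either condition. They were picked out after their values were seen. The same count was not made over all Kbz peaks, so whether 2 of 21 is unusual is unknown. The peak at chr17:41608764-41609163 (400 bp, fold 4.96, percentile 74.7) lay 3604 bp from the TSS of KRT16, a keratin of wounded and fast-growing epidermis, outside the 3 kb window, and 93.4% of its 50-base stretches occur once in the reference. The peak at chr12:52631277-52631942 (666 bp, fold 2.86, percentile 8.91) lay 12718 bp from the TSS of KRT73, a keratin of the inner root sheath, and all of its stretches occur once.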
